A study of Homo sapiens with 8 samples.

Results

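In LX-2, a cell line of human hepatic stellate cells, the proteasome genes were taken by their symbols: every gene whose symbol began with PSMA, PSMB, PSMC, PSMD, PSME, PSMF or PSMG and a number, without antisense genes and without PSMC3IP. Of 16796 genes in the count files, 47 carried such a symbol. A minimum total of 10 counts over the 8 libraries left 46 of them among 14895 genes tested. The gene left out was PSMB11, the catalytic subunit of the thymus, which had 2 counts in all. LX-2 is a single immortalized line, and its cells resemble myofibroblastic hepatic stellate cells (MF-HSC), the collagen-producing cells of the scarred liver. Both groups grew in medium with 5% fetal bovine serum. The control group received the vehicle DMSO, and the OGTi group received OSMI-1, an inhibitor of O-GlcNAc transferase (OGT), at 50 µM for 24 h. Each group had 4 libraries of polyadenylated RNA, named biological replicates 1 to 4 in the labels. The comparison asks how blocking OGT, which links the sugar O-GlcNAc to proteins inside the cell, changed the mRNA of these cells.

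The proteasome is the protease that degrades proteins tagged with ubiquitin. Its 20S core is a barrel of α and β rings, with the active sites on the inner face of the β rings. The 19S particle at the end of the barrel binds ubiquitin chains, removes them and unfolds the substrate with a ring of ATPases. In cells exposed to interferon-γ, inducible catalytic subunits replace the constitutive ones to give the immunoproteasome, and PSME1 and PSME2 form an alternative cap. In cells whose proteasomes are overloaded, the transcription factor NFE2L1 raises the genes of the core and of the 19S particle together through antioxidant response elements.

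The members that changed most in OGTi-treated cells were PSMB10, an inducible catalytic subunit, and PSME2, a subunit of the alternative cap. Both hold a short interferon-type element, GAAANNGAA, within 250 bases before their RefSeq start (GRCh38.p14). The element was chosen after these values had been seen, and its link to the changes was not tested. Such windows were at hand for 40 of the 46 members. It was in 10.2% of the member windows and in 5.63% of the windows of all tested genes. This element is shown in capitals for all 5 members that hold it in that window, with 10 bases on either side and in the direction of the gene, because the values of these 5 genes are compared further on. The stretches lie at chr14:24146620-24146648 (minus strand) for PSME2, chr16:67936853-67936881 (minus strand) for PSMB10, chr1:151399495-151399523 (plus strand) for PSMB4, chr15:78540155-78540183 (plus strand) for PSMA4 and chr6:3258904-3258932 (plus strand) for PSMG4.
PSME2: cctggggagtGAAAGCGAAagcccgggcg
PSMB10: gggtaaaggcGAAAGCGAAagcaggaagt
PSMB4: tcgtctacagGAAAAAGAAagaaatgaca
PSMA4: atagtgaagaGAAAATGAAaggagagcgc
PSMG4: ttccggggccGAAAGCGAAagcgcgctcg
The capitals are the match, which starts 28 bases before the RefSeq start in PSME2, 21 in PSMB10, 68 in PSMB4, 240 in PSMA4 and 33 in PSMG4. In PSME2 and PSMG4 the matched letters and the 3 bases after them were those of PSMB10. All of the 250 bases before the start of PSMB10 are given next (chr16:67936851-67937100, minus strand), since this gene had the largest change of all members, with the same element in capitals.
PSMB10: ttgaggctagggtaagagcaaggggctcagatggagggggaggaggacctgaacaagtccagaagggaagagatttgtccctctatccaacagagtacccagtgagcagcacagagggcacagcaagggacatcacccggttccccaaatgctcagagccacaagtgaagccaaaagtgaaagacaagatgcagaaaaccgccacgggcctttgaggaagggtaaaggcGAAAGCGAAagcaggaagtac
The core of the antioxidant response element, TGACNNNGC, is shown in the same way for both subunits of the alternative cap and for PSMG2, the member with the lowest log2 fold change (log2 FC). The stretches lie at chr14:24136098-24136126 (plus strand) for PSME1, chr14:24146767-24146795 (minus strand) for PSME2 and chr18:12658689-12658717 (plus strand) for PSMG2.
PSME1: atggcagggcTGACCCCGCctcctccatc
PSME2: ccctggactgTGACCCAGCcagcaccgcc
PSMG2: cagtttcccgTGACCCCGCggccgctctg
In GENCODE release 44, transcripts or gene models of PSME2, PSMG2 and PSMG4 begin further upstream and run across their stretches. That of PSMB10 begins inside its match, at chr16:67936864. The RefSeq start used is thus one of several annotated starts for these genes. RefSeq itself gives further windows for PSMG2 and PSMA4. The other window of PSMG2 (chr18:12702792-12703041) held no searched motif. In PSMA4, GAAANNGAA was only in the window beginning at 78540155 and TGACNNNGC only in the one beginning at 78540536.

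The libraries held between 24166756 and 28201215 expected counts each. Libraries of a group differed by far more than sampling noise. Each was counted as a replicate because the labels name biological replicates, which such a difference alone cannot show. The stellate cell markers PDGFRB, COL1A1, COL1A2, VIM and ACTA2 were detected in every library, and the summed level of the 8 listed stellate cell markers was 171900 to 200600 normalized counts in control and 130800 to 152400 in OGTi libraries. COL1A1, COL1A2, PDGFRB and ACTA2 were lower after OGTi, with log2 FC of -0.95, -1.39, -0.90 and -1.75. The fall was not shared by all stellate cell markers. VIM, the most abundant of those listed in every library, had a log2 FC of -0.09 and RGS5 one of -0.20. The groups overlapped in both VIM and RGS5. Desmin (DES) had at most 4.16 and LRAT, which stores vitamin A, at most 5.75 normalized counts, so these stellate cell markers were near 0. Of 4 hepatocyte markers only APOA1 was in the files, with at most 1.0 normalized count. Of 5 leukocyte and Kupffer cell markers 3 were in the files, and their summed level was 2477 to 4080 normalized counts in control and 5605 to 9390 in OGTi libraries. Nearly all of that sum was CD68, a lysosomal protein, while PTPRC, which defines leukocytes, had at most 11.5. The endothelial and cholangiocyte markers, of which 3 of 4 were in the files, summed to 26.3 to 50.7 in control and 5.01 to 11.9 in OGTi libraries. The part of these marker changes in the proteasome values was not tested.

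The proteasome genes changed little as a family, with a few members that stood out. A gene was called when its q-value in DESeq2, with replicate number as a block, was 0.05 or lower over all genes tested. Of the 46 members 18 were called (39.1%), 13 higher and 5 lower in OGTi-treated cells. Among all 14028 genes with a q-value 46.6% were called, 22.7% higher and 24% lower. The members' share of calls was thus below the background, their share of higher calls (28.3%) was near it and their share of lower calls (10.9%) was below it. Most members were abundant, and among the 9755 genes at least as abundant as the lowest member the share called was 54.4%. The median log2 FC was 0.08 over the members and 0.00 over all genes with a q-value, and 28 members lay above 0 and 18 below. In replicate pairs 1 to 4 the members' median log2 ratio was 0.06, 0.10, 0.08 and 0.06.

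The sizes of the changes were small. The median absolute log2 FC was 0.15 over the members, 0.31 over all genes with a q-value and 0.25 over the genes at least as abundant as the lowest member. Only PSMB10 and PSME2 changed by 1.5-fold or more, against 3732 of the 14028 genes, and no member changed by 2-fold. In 10 members (21.7%) the normalized counts of the groups did not overlap, against 38% of all genes tested. These were PSMA3, PSMA5, PSMB10, PSMC6, PSMD4, PSMD8 and PSME2, which were higher, and PSMB6, PSMC3 and PSMG2, which were lower. Normalized counts are expected counts divided by the library's median-of-ratios size factor. Scaled by the total count instead, 20 members were called higher and 2 lower, and the median log2 FC was 0.17 over the members and 0.09 over all genes.

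**Figure D1:**
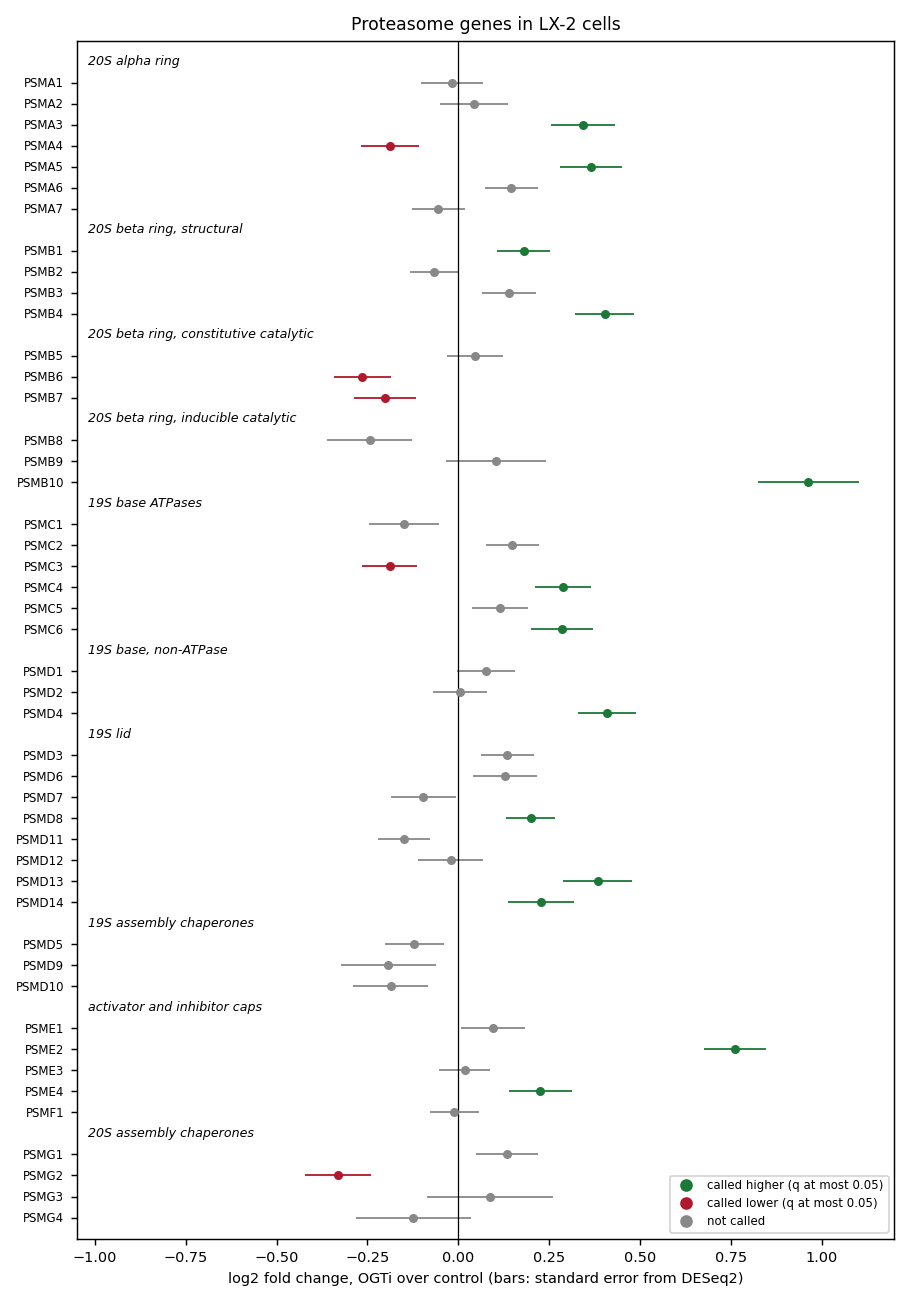
Log2 fold change of the 46 proteasome genes in OGTi-treated over control LX-2 cells (x axis), grouped by role (y axis). Points are DESeq2 estimates and bars their standard errors, n = 4 libraries per group; PSMB10 at 0.96 and PSME2 at 0.76 stand apart from the other members, which lie between -0.33 and 0.41.

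The members together held 0.486% ± 0.0175 of a library's counts in control (SD, n = 4, 0.464% to 0.501%) and 0.544% ± 0.0276 in OGTi-treated cells (0.505% to 0.567%). The ranges did not overlap. The 17 genes of the 20S core took 0.139% ± 0.0103 in control (0.131% to 0.153%) and 0.151% ± 0.0102 after OGTi (0.137% to 0.159%), with overlapping ranges. The 17 genes of the 19S particle taken by symbol took 0.225% ± 0.00869 (0.213% to 0.232%) and 0.255% ± 0.0153 (0.234% to 0.268%), and these ranges did not overlap. All of these shares are scaled by the total count, and on that scale the median log2 FC over all genes was also above 0, at 0.09. In such whole-culture RNA, fewer cells with a transcript and less transcript per cell cannot be told apart.

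The α ring of the core, whose N-terminal ends close the gate of the barrel, was split. Of its 7 genes PSMA3 and PSMA5 rose, PSMA4 fell, and PSMA1, PSMA2, PSMA6 and PSMA7 were not called, with log2 FC between -0.05 and 0.15. Called were thus 42.9%, against 46.6% of all genes. PSMA5 had 1185, 1009.9, 1054 and 1081 normalized counts in control replicates 1 to 4 and 1479.5, 1346, 1371 and 1373 in OGTi replicates 1 to 4. All OGTi libraries lay above all control libraries, and replicate 1 was the highest of both groups. The log2 FC of PSMA5 was 0.36 ± 0.09 (SE) with q = 9.58e-05 (DESeq2). PSMA3 was similar, with 1509, 1251, 1263 and 1405 in control and 1686, 1592, 1765 and 1840.1 in OGTi libraries, a log2 FC of 0.34 ± 0.09 and q = 3.61e-04 (DESeq2). Its groups did not overlap either. PSMA4 was the called member of opposite sign to the ring's median, with 3361, 2937, 3220 and 2888 in control and 2852, 2536, 2578 and 2929 in OGTi libraries (log2 FC -0.19 ± 0.08, DESeq2 q = 0.0441). Its groups overlapped in replicate 4, the single pair in which the OGTi library was the higher, and without the replicate block it was not called.

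The structural subunits of the β ring, which carry no active site, were PSMB1, PSMB2, PSMB3 and PSMB4. Of these 4 genes PSMB4 and PSMB1 rose and none fell. That is 50% called, against 46.6% of all genes, of which 24% were called lower. PSMB4 had 2642, 2038, 2294 and 2619 normalized counts in control and 3121, 2559, 3377 and 3664 in OGTi libraries. Each OGTi library was above the control of its number, but the groups overlapped, because OGTi replicate 2 was lower than the highest controls. Its log2 FC was 0.40 ± 0.08 with q = 3.71e-06 (DESeq2). PSMB1 was higher in each of the 4 pairs with a log2 FC of 0.18 ± 0.07, while PSMB3 (0.14 ± 0.07) and PSMB2 (-0.07 ± 0.07) were not called.

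**Figure D2:**
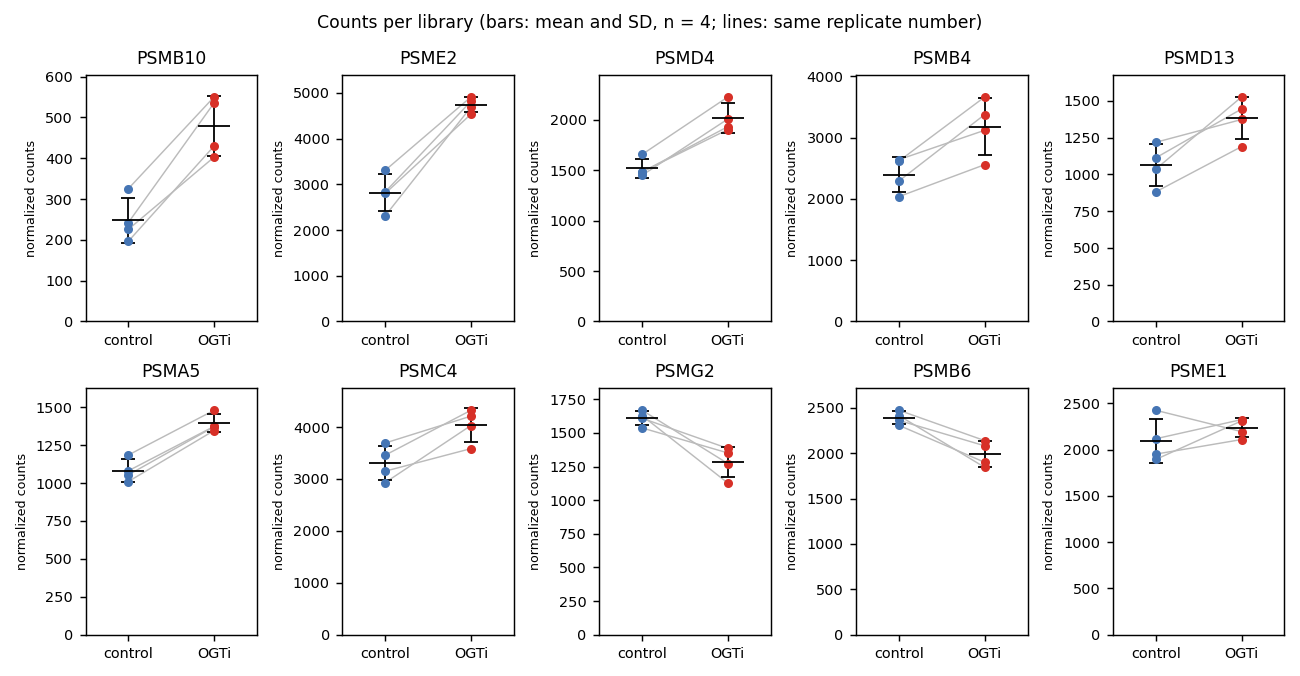
Normalized counts (y axis, from 0) of 10 proteasome genes in the 4 control and 4 OGTi libraries (points), with grey lines joining libraries of the same replicate number and black bars for the mean and SD. The groups do not overlap in PSMB10, PSME2, PSMD4, PSMA5, PSMG2 and PSMB6, while those of PSME1 overlap.

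Of the 3 constitutive catalytic subunits PSMB6 and PSMB7 fell, and PSMB5 was not called. Calls made up 66.7%, against 46.6% of all genes. PSMB6, which carries the caspase-like activity, had 2472, 2361, 2306 and 2414 normalized counts in control and 2138, 2081, 1899.7 and 1844 in OGTi libraries. Every OGTi library was below every control library. PSMB6 fell by 0.26 ± 0.08 on the log2 scale (DESeq2 q = 0.00242). PSMB7, which carries the trypsin-like activity, had 4305, 3932, 3959 and 4496 in control and 3389, 3042, 4124 and 4059 in OGTi libraries. It was lower in replicates 1, 2 and 4 and higher in replicate 3, with a log2 FC of -0.20 ± 0.09 and q = 0.0405 (DESeq2), and it was not called without the replicate block. PSMB5, the chymotrypsin-like subunit, had 2653, 2069.5, 2203 and 2287 in control and 2668, 2248, 2378 and 2199.8 in OGTi libraries. Its groups overlapped almost entirely, and its log2 FC of 0.05 ± 0.08 had a 95% interval from -0.11 to 0.20.

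Of the inducible catalytic subunits, PSMB10 rose, and PSMB8 and PSMB9 were not called. PSMB10, the trypsin-like subunit of the immunoproteasome that takes the place of PSMB7, had 325, 242, 197 and 226 normalized counts in control and 550.1, 535, 429.7 and 403 in OGTi libraries. The lowest OGTi library, replicate 4, was above the highest control, replicate 1. The log2 FC of PSMB10 was 0.96 ± 0.14, a 1.95-fold change with a 95% interval on the log2 scale from 0.69 to 1.24, and q was 5.86e-11 (DESeq2). PSMB8, the inducible counterpart of PSMB5, had 1168, 936, 941 and 1017 in control and 767, 994, 861 and 811 in OGTi libraries. It was lower in replicates 1, 3 and 4 and higher in replicate 2, with a log2 FC of -0.24 ± 0.12 and q = 0.0761 (DESeq2). Without replicate 2 its log2 FC was -0.35 and it was called. PSMB8 was also called lower on all libraries by edgeR, the alternative to DESeq2, with the replicate block. PSMB9, the inducible counterpart of PSMB6, had 761, 494, 401 and 523 in control and 590.4, 583, 548 and 564 in OGTi libraries. The controls of PSMB9 spanned a wide range around the narrow OGTi group, and its log2 FC was 0.10 ± 0.14 with q = 0.573 (DESeq2). PSMB8 and PSMB9 lie side by side on chromosome 6 on opposite strands, and their gene models overlap by 544 bases.

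The inducible subunits were also set against the subunits they replace within each library. PSMB10 amounted to 7.56%, 6.16%, 4.96% and 5.02% of the count of PSMB7 in control replicates 1 to 4 and to 16.2%, 17.6%, 10.4% and 9.92% in OGTi replicates 1 to 4. All OGTi ratios were above all control ratios, with means of 5.93% ± 1.22 and 13.5% ± 3.94 (SD, n = 4). The difference was 1.17 on the log2 scale, with p = 0.0286 in a two-sided exact permutation test, the smallest p that 4 against 4 libraries can give. Adjusted over the 3 ratios compared, p was 0.0857 (exact permutation), which missed 0.05. That test takes the libraries as unpaired. Within replicate pairs 1 to 4 the log2 ratio rose by 1.1, 1.51, 1.07 and 0.98, and an exact sign-flip permutation test of these differences, added after the values were seen, gave p = 0.125, the smallest that 4 pairs allow. PSMB8 was 44.1% ± 1.04 of PSMB5 in control and 36.5% ± 6.33 after OGTi, lower in all 4 pairs (log2 difference -0.29, exact permutation p = 0.0857, adjusted 0.129). PSMB9 was 22.7% ± 5.70 of PSMB6 in control and 28.8% ± 1.32 after OGTi, higher in 3 of 4 pairs (log2 difference 0.37, exact permutation p = 0.143, adjusted 0.143).

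**Figure D3:**
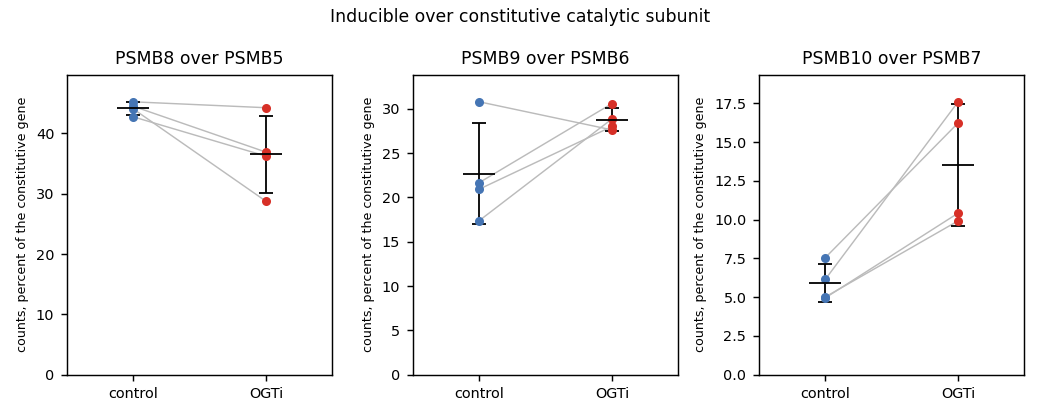
Counts of each inducible catalytic subunit as a percent of the constitutive subunit it replaces (y axis, from 0) in the 4 control and 4 OGTi libraries (points), with lines joining equal replicate numbers and bars for mean and SD. PSMB10 over PSMB7 ranges from 4.96% to 7.56% in control and from 9.92% to 17.6% after OGTi, while the other ratios overlap between groups.

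The ATPases of the 19S base, which unfold the substrate and open the gate, were mixed. Of 6 genes PSMC4 and PSMC6 rose and PSMC3 fell. This is 50% called, against 46.6% of all genes. PSMC4 had 2930.4, 3151, 3459 and 3693 normalized counts in control and 4030.1, 3585, 4323 and 4210.2 in OGTi libraries. It was higher in each pair, although OGTi replicate 2 was below control replicate 4. Its log2 FC was 0.29 ± 0.08 with q = 6.04e-04 (DESeq2). PSMC6 rose by 0.29 ± 0.09 on the log2 scale without overlap. PSMC3 went against the median of its group, with 3241, 3119.8, 3261 and 3259 in control and 3024, 2929, 2715 and 2644 in OGTi libraries. All 4 OGTi libraries were below all controls (log2 FC -0.19 ± 0.08, DESeq2 q = 0.0306). PSMC1, PSMC2 and PSMC5 were not called, with log2 FC of -0.15, 0.15 and 0.11.

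Of the other 3 subunits of the base taken by symbol, PSMD4 rose, and the large scaffold subunits PSMD1 (log2 FC 0.08 ± 0.08) and PSMD2 (0.01 ± 0.07) were not called. The 19S receptor ADRM1, which the symbol rule leaves out, rose (0.33 ± 0.07) and is described further on. PSMD4 is a receptor that binds ubiquitin chains. It had 1657, 1482, 1450.3 and 1484 normalized counts in control and 2227, 1933, 2008 and 1904 in OGTi libraries. The lowest OGTi library was above the highest control, and the log2 FC was 0.41 ± 0.08 with q = 1.38e-06 (DESeq2). The change of PSMD4 was the largest among the 17 genes of the 19S particle taken by symbol.

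In the lid, which sits on the base and removes ubiquitin chains, PSMD13, PSMD8 and PSMD14 rose and none of the 8 genes fell. Among the lid genes 37.5% were called, against 46.6% of all genes, of which 24% were called lower. PSMD13, a structural subunit, had 1218, 881, 1112 and 1036 normalized counts in control and 1373, 1188, 1444 and 1526 in OGTi libraries. It was higher in each pair, and OGTi replicate 2 was below control replicate 1. Its log2 FC was 0.38 ± 0.10 with q = 2.20e-04 (DESeq2). PSMD14, the deubiquitinase of the lid, had a log2 FC of 0.23 ± 0.09 (DESeq2 q = 0.0283) and was not called in any fit that left out a replicate. PSMD8 had a log2 FC of 0.20 ± 0.07. The structural subunits PSMD3 (0.14 ± 0.07), PSMD6 (0.13 ± 0.09), PSMD7 (-0.10 ± 0.09), PSMD11 (-0.15 ± 0.07) and PSMD12 (-0.02 ± 0.09) were not called.

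The caps that can take the place of the 19S particle were PSME1 to PSME4, and PSMF1 is a regulator that inhibits the core in vitro. Of these 5 genes PSME2 and PSME4 rose and none fell. Their share of calls was 40%, against 46.6% of all genes, of which 24% were called lower. PSME2 had 3306, 2834, 2311 and 2801 normalized counts in control and 4909, 4814, 4688 and 4533 in OGTi libraries. The OGTi libraries lay close together and above every control, with a 1.70-fold change and a 95% interval on the log2 scale from 0.60 to 0.93. The log2 FC was 0.76 ± 0.08 with q = 2.67e-18 (DESeq2). PSME1, which forms a mixed ring with PSME2 and whose gene lies 4394 bases away on chromosome 14, had 2426, 2118, 1895 and 1952 in control and 2195, 2325, 2311 and 2109.6 in OGTi libraries. Its groups overlapped, and its log2 FC of 0.10 ± 0.09 (DESeq2 q = 0.389) had a 95% interval from -0.08 to 0.27, below that of PSME2. As counts, PSME2 was 136.3%, 133.8%, 122.0% and 143.5% of PSME1 in control replicates 1 to 4 and 223.6%, 207.0%, 202.8% and 214.9% in OGTi replicates 1 to 4. This ratio was formed after the values were seen and has no test. PSME4, the large nuclear cap linked to histone degradation, had a log2 FC of 0.23 ± 0.09 (DESeq2 q = 0.0225) and was higher in 3 of 4 pairs, and without the replicate block it was not called. PSME3, the nuclear relative of PSME1 and PSME2, and PSMF1 were not called, with log2 FC of 0.02 ± 0.07 and -0.01 ± 0.07.

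The assembly chaperones are not part of the finished protease. PSMG2, which with PSMG1 guides the assembly of the α ring, was the called member with the largest decrease. It had 1629, 1668, 1609 and 1537 normalized counts in control and 1128, 1273, 1385 and 1351 in OGTi libraries. Every OGTi library was below every control library, and PSMG2 fell by 0.33 ± 0.09 on the log2 scale (DESeq2 q = 0.00109). Its partner PSMG1 had a log2 FC of 0.13 ± 0.08 and was not called. PSMG3 and PSMG4, which act as a second pair, were the least abundant members together with PSMB10, and their log2 FC of 0.09 ± 0.17 and -0.12 ± 0.16 had wide errors. The 3 chaperones of the 19S base, PSMD5, PSMD9 and PSMD10, all had negative estimates, from -0.19 to -0.12, and none was called. PSMD10, with the largest test statistic of them, had 1097, 970.4, 1074 and 1109.8 in control and 814, 953, 907 and 1075 in OGTi libraries. It was lower in each pair with overlapping groups (log2 FC -0.19 ± 0.10, DESeq2 q = 0.127).

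The calls differed in how far they rested on single choices. PSMA3, PSMA5, PSMB4, PSMB10, PSMC4, PSMD4, PSMD13, PSME2 and PSMG2 were called under all 13 alternative settings. The other 9 called members lost the call under at least 1 setting. PSMB6 and PSMC6 lost it when replicate 4 was left out and under no other setting. PSMC3 lost it without replicate 2, 3 or 4, without control replicate 3 and with total-count scaling, and PSMD8 without replicate 1, 2 or 3 and without control replicate 3. PSMA4, PSMB1, PSMB7 and PSME4 lost it without the replicate block and when single replicates were left out. PSMA4 and PSMB7 also lost it with upper-quartile and with total-count scaling. Over these settings the log2 FC of PSMB10 ranged from 0.90 to 1.05 and that of PSME2 from 0.67 to 0.85.

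The levels of the members relative to each other were compared as CPM, counts scaled to a library total common to all samples, per kilobase of the canonical GENCODE transcript. On this total-count scale the median log2 FC over all genes was 0.09, which the differences between groups given below include. PSMD8 was the highest in both groups, at 200.2 ± 8.55 in control and 244.5 ± 4.03 after OGTi (SD, n = 4). PSMB7 followed in control at 156.9 ± 10.7, with PSMA7 (143.8 ± 15.9), PSMD2 (137.7 ± 10.2), PSME2 (131.5 ± 21.8) and PSMD3 (130.9 ± 9.79) within their spread of each other. After OGTi, PSME2 reached 235.2 ± 7.57 and was second to PSMD8. The immunoproteasome subunits were lower, with PSMB8 at 33.5 ± 4.11 in control and 30.1 ± 3.2 after OGTi. PSMB9 was at 19.9 ± 6.0 in control and 22.1 ± 0.81 after OGTi, and PSMB10 at 9.41 ± 2.32 in control and 19.3 ± 2.94 after OGTi. The assembly factors PSMD9 (5.74 ± 0.305 in control and 5.38 ± 0.768 after OGTi) and PSMG3 (5.68 ± 0.928 in control and 6.42 ± 0.918 after OGTi) were the lowest.

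The subunits of the core are present in equal number in the finished particle, but their mRNA levels per kilobase were far apart. Among the 14 core genes without the inducible subunits, the highest was 14.1 to 16.1 times the lowest in control and 10.3 to 11.7 times in OGTi libraries. The lowest was PSMA5, whose canonical transcript is 3.82 kilobases long, so that this spread depends on the isoform annotated as canonical. The coefficient of variation over the same genes was 55.8% to 60.3% in control and 55.6% to 58.2% in OGTi libraries, and these ranges overlapped.

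**Figure D4:**
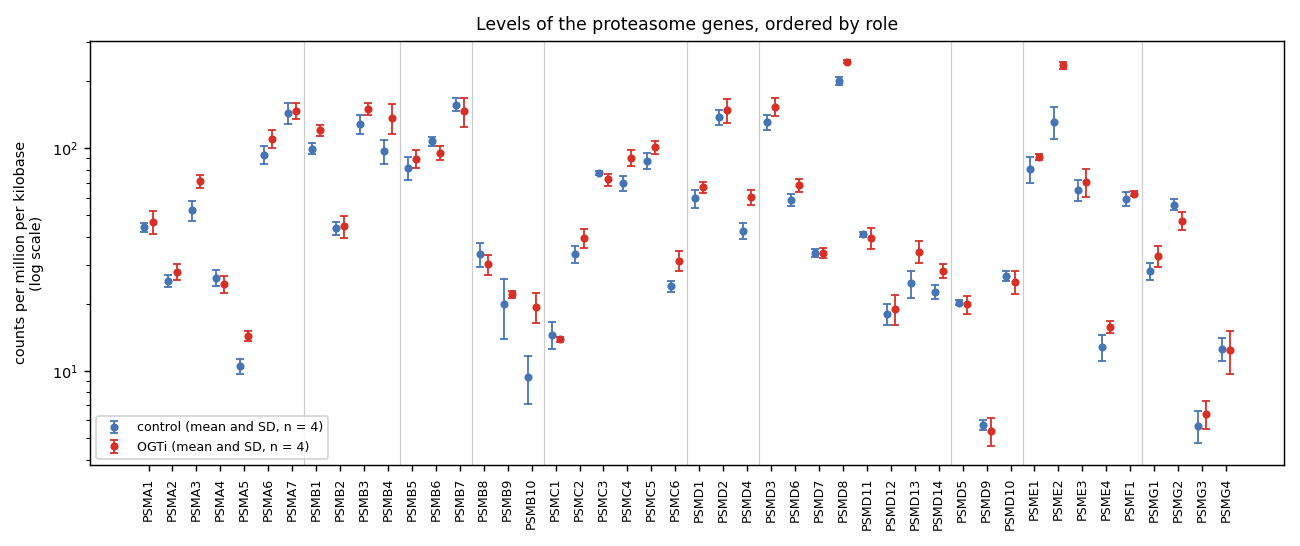
Level of each proteasome gene in CPM per kilobase (y axis, log scale) in control and OGTi-treated cells, as mean and SD of 4 libraries, with the genes ordered by role (x axis) and grey lines between roles. PSMD8 is the highest in both groups, and PSME2 moves from 131.5 to 235.2.

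The sequence before the starts was searched for short motifs. RefSeq windows were at hand for 40 members (49 windows of 250 bases), and they were set beside 16753 windows of 11479 tested genes, with each motif searched on both strands. TGACNNNGC was found in 13 of the 49 member windows (26.5%) against 11.5% of all windows. The CCAAT box was in 36.7% against 32.5% and the ETS core CCGGAAG in 20.4% against 12.8%. GAAANNGAA was in 10.2% against 5.63%. TTCNNNGAA, the palindrome of STAT factors, was in 12.2% against 5.47%, and TATAAA in 8.16% against 6.45%. A match is a run of letters and not a bound site, and these shares have no test. The GAAANNGAA, TTCNNNGAA and TATAAA motifs were chosen after the values had been seen.

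The 5 members with GAAANNGAA in the window, whose sequences were given at the start, did not move together. PSME2, PSMB10 and PSMB4 rose, PSMA4 fell and PSMG4 was not called, with log2 FC of 0.76, 0.96, 0.40, -0.19 and -0.12. PSMG4 holds the same GAAAGCGAA letters as PSMB10 and PSME2 before its RefSeq start, which lies inside a longer GENCODE gene model. Of the 13 members with TGACNNNGC, PSME2 and PSME4 rose, PSMA4 and PSMG2 fell, and 9 were not called (PSMB3, PSMB9, PSMC5, PSMD3, PSMD5, PSMD9, PSMD12, PSME1 and PSMG1). Over all genes with a q-value 46.6% were called, and over the 46 members 39.1%. The members were scattered over 17 chromosomes, with 7 each on chromosomes 14 and 17 and 4 each on chromosomes 1 and 6.

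Several members share sequence with other genes. Annotated pseudogenes were named after 17 members, 44 in all, with 13 for PSMC1 and 6 for PSME2. RSEM splits reads that align to several genes, which leaves fractional counts, and PSMC2, PSMB2, PSMD12 and PSMC6 were the members with a deposited count that was not exactly whole in at least 1 library. The deposited counts of PSME2 and PSMB10 were exactly whole, with no tolerance, in all 8 libraries. Whether the pseudogenes were in the reference of those counts was not checked, so whole counts cannot show where pseudogene reads were placed. PSMA1, PSMA2, PSMA6, PSMB10 and PSMD9 overlap a protein-coding gene model on the same strand, so that their counts could include reads of that model.

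Genes that act with the proteasome but carry other names were described in the same way. Over 48 such genes in 5 lists, 20 were called higher and 6 lower (54.2% called, against 46.6% of all genes and 54.4% of genes at least as abundant as the lowest proteasome member), with a median log2 FC of 0.14 and a median absolute log2 FC of 0.24. Of the 12 proteasome factors outside the symbol rule 5 rose and 1 fell, so that 50% were called. ZFAND5, which binds the 19S particle and stimulates it, had 3452, 4153, 4324 and 4259 normalized counts in control and 5777, 4975, 6138 and 5802 in OGTi libraries, without overlap. Its log2 FC was 0.49 ± 0.08 with q = 4.01e-08 (DESeq2). PAAF1, which binds the ATPases of the base and limits their joining to the core, had a log2 FC of 0.60 ± 0.12, and ADRM1, a ubiquitin receptor of the 19S particle, one of 0.33 ± 0.07. Both rose in each of the 4 pairs without overlap. POMP, the chaperone that completes the core, had 1828, 1603, 1689 and 1642 in control and 1967, 1663, 1869 and 1992 in OGTi libraries, with overlapping groups and a log2 FC of 0.15 ± 0.08 (DESeq2 q = 0.136). The called gene that fell in this list was SEM1, the smallest 19S subunit, at -0.33 ± 0.12, which was named after its value was seen.

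Of the 13 genes around NFE2L1 and NFE2L2, the transcription factors of proteasome recovery and of the oxidative stress response, 7 rose and none fell. The share called was 53.8%, against 46.6% of all genes and 54.4% of genes at least as abundant as the lowest proteasome member. The share called higher was also 53.8%, against 22.7% of all genes and 26% of those abundant genes. The list was chosen with earlier results of these data known. NFE2L1 had 9002, 8586, 8465 and 8458 normalized counts in control and 13538, 14731, 13917 and 12722 in OGTi libraries. Every OGTi library was above every control, and its log2 FC was 0.67 ± 0.07 with q = 4.75e-22 (DESeq2). NFE2L2 had 1737, 1412, 1462 and 1435 in control and 1489.6, 1529, 1452 and 1555 in OGTi libraries, overlapping, with a log2 FC of 0.00 ± 0.09 and a 95% interval from -0.18 to 0.18. MAFF, a small Maf protein that pairs with both factors on DNA, had 637, 768, 714 and 842 in control and 2069.9, 1998, 2112 and 1796 in OGTi libraries, a log2 FC of 1.43 ± 0.11 (DESeq2 q = 1.15e-39). SYVN1, a ubiquitin ligase of the endoplasmic reticulum that passes NFE2L1 on for degradation, had a log2 FC of 0.61 ± 0.08. NGLY1, the enzyme that removes sugar chains from NFE2L1, had one of 0.82 ± 0.11, and it is named here after its value was seen.

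Of the 10 genes of the VCP complex and the ubiquitin shuttles 5 rose and 1 fell. The share called was 60%, against 46.6% of all genes and 54.4% of genes at least as abundant as the lowest proteasome member. SQSTM1, an autophagy receptor that also binds ubiquitin chains, had 8201, 8639.7, 7475 and 9157 normalized counts in control and 22371, 23908, 24011 and 24193 in OGTi libraries. The groups were far apart, the lowest OGTi library being replicate 1, and the log2 FC was 1.5 ± 0.07 with q = 2.66e-100 (DESeq2). RAD23B, which carries ubiquitin-tagged proteins to the 19S particle, had 11725, 10972, 12509 and 12807 in control and 9347, 8134, 9321 and 9909 in OGTi libraries, without overlap, and a log2 FC of -0.39 ± 0.06. FAF2, a partner of VCP at the membrane of the endoplasmic reticulum, had 2180.3, 2279.9, 2779.9 and 2643 in control and 3198, 3235, 3419 and 3636 in OGTi libraries. Its groups did not overlap, and its log2 FC was 0.45 ± 0.08. Of the 4 genes of ubiquitin and its activating enzymes, UBB rose (0.30 ± 0.08), RPS27A fell (-0.22 ± 0.08) and UBA1 (-0.07 ± 0.06), the main activating enzyme, was not called. In this ubiquitin list the share called was 50%.

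The 9 genes of peptide loading and the interferon-γ response, which act downstream of or together with the immunoproteasome, did not move one way, with 2 higher and 3 lower. The share called was 55.6%, against 46.6% of all genes and 54.4% of genes at least as abundant as the lowest proteasome member. IRF1, a transcription factor that binds interferon-type elements, had 643, 601, 399.9 and 475 normalized counts in control and 1105, 970.3, 836 and 762 in OGTi libraries. The groups did not overlap, and its log2 FC was 0.80 ± 0.11 with q = 3.97e-12 (DESeq2). TAPBP, which loads peptides onto class I molecules, had 9588, 8672, 9959.9 and 10838 in control and 5638, 5137, 6221 and 6939.8 in OGTi libraries. It was lower without overlap, with a log2 FC of -0.71 ± 0.07 and q = 3.18e-26 (DESeq2). ERAP2, which trims peptides, was lower in each pair, with 631, 352, 453 and 392 in control and 509.9, 199.9, 238 and 224 in OGTi libraries. Replicate 1 was the highest of both groups, and the log2 FC was -0.71 ± 0.15 (DESeq2 q = 9.42e-06).

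**Figure D5:**
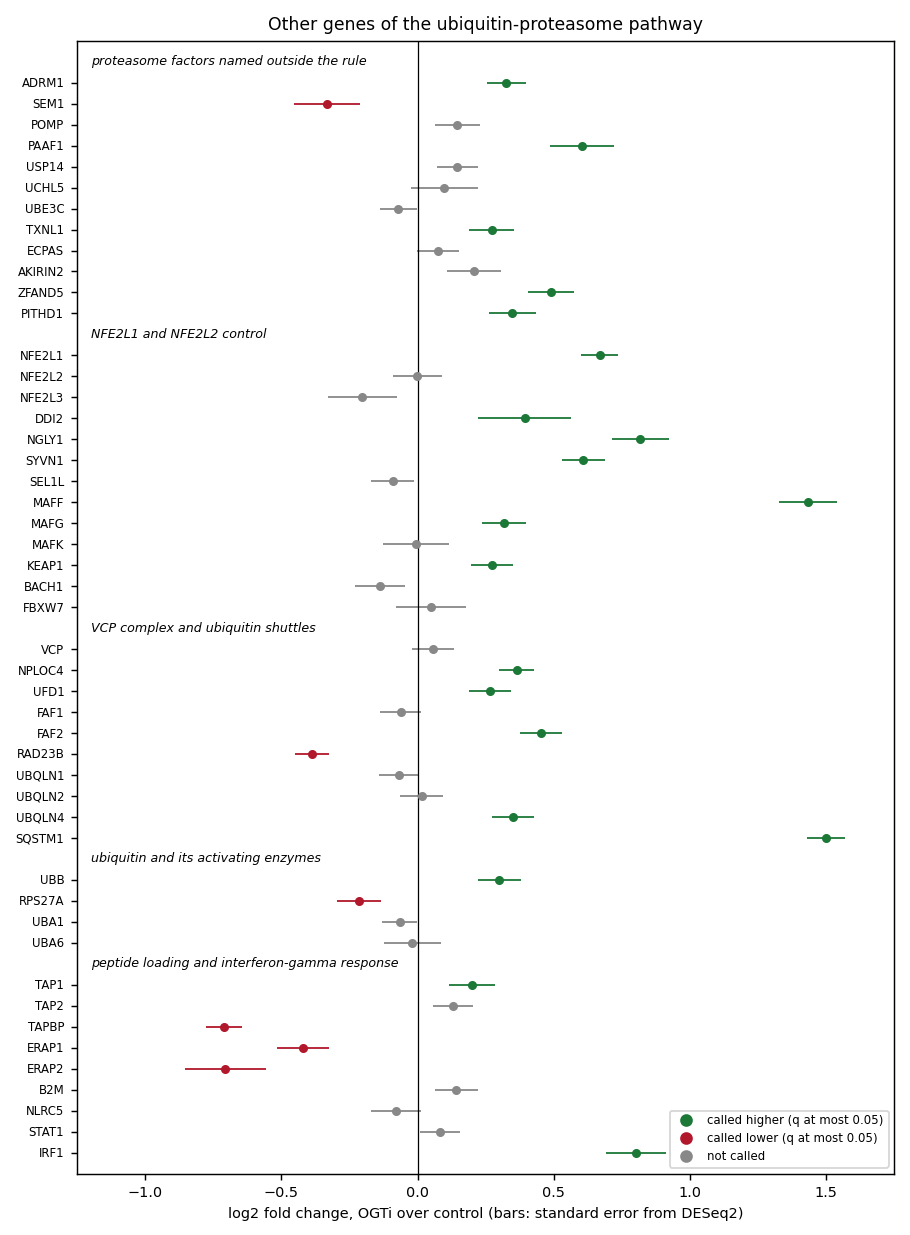
Log2 fold change of 48 other genes of the ubiquitin-proteasome pathway in OGTi-treated over control cells (x axis), in 5 lists (y axis), with points for DESeq2 estimates and bars for their standard errors, n = 4 libraries per group. SQSTM1 at 1.5 and MAFF at 1.43 are the highest, and TAPBP and ERAP2 at -0.71 the lowest.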

How the data were processed

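Per the labels, RNA was sequenced from both ends after oligo dT enrichment with a stranded library. The expected counts per gene were deposited by the authors, made with Bowtie2 2.3.5.1 and RSEM 1.3.1 on hg38 by the submitters' processing notes, and are not scaled for depth (24166756 to 28201215 per library). The authors' deposited comparison table holds log2 fold changes with standard errors, a Wald test score and p-values from DESeq2 1.36.0, and it was not used.

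Expected counts were rounded, genes under 10 counts in total were left out, and the Wald test of DESeq2 1.42.0 (R 4.3.3) was fitted over all 8 libraries with replicate number as a block, median-of-ratios factors and Benjamini-Hochberg q-values. The block follows the study's pairing. Deviations from the group mean, over the 11702 genes whose mean normalized count was 50 or more, correlated at r = 0.379, 0.303, 0.138 and 0.269 within replicate pairs 1 to 4; these are correlations over genes, which do not vary independently. The third control had a higher r with the fourth OGTi library (0.272) than with its own pair. Likewise, the third OGTi library had a higher r with the fourth control (0.201) than with the third (0.138). These correlations thus do not clearly tell pairs 3 and 4 apart.

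Alternatives were no replicate block, edgeR 4.0.16 (quasi-likelihood), other size factors and count filters, and leaving out replicates. The scripts were tested on simulated data. Values per library are given for the catalytic subunits, the 6 called members with the largest change and the member with the largest statistic in each role. They are also given for called members opposite in sign to their role's median and, outside these rules, for PSMA3 and PSME1. Of each pathway list the 3 genes with the largest statistic are named, plus NFE2L1, NFE2L2 and POMP. Values per library are printed for only some of these pathway genes. Some genes of the pathway lists are not reported here. The members and all lists were chosen with earlier results of these data known. Transcript lengths came from GENCODE 44 (GRCh38) and sequences from RefSeq (GRCh38.p14).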

Additional observations from a re-analysis of the deposited data

Results flagged for a closer look

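In 7 of the 134 groups of 4 libraries examined for the named genes, 1 library lay far from the other 3 for its group's range; chance gives about 1 in 20 such groups, or 6.7 here. For PSMB1, OGTi replicate 2 had 2515 normalized counts, and the rest of that group 2768 to 2813. PSMD1 had 6029 in OGTi replicate 4 against 5470 to 5504. For PSMC3, control replicate 2 had 3120, below the 3241 to 3261 of its group. PSMD4 had 1657 in control replicate 1 against 1450 to 1484. Among the other pathway genes, NFE2L2 had 1737 in control replicate 1 against 1412 to 1462. SQSTM1 had 22370 in OGTi replicate 1 against 23910 to 24190. ERAP2 had 509.9 in OGTi replicate 1 against 199.9 to 238.4.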

How the results depend on the processing

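No called result changed direction under any alternative run, while uncalled estimates near 0, such as those of PSMA1, PSMB9, PSMD2 and PSMG3, took either sign. Without the replicate block, DESeq2 called 14 members, 11 higher and 3 lower, and edgeR 13, 10 higher and 3 lower. Of all genes these fits called 43.2% and 40.6%. Lower calls numbered 3 with upper-quartile factors and 2 with total-count factors, which also gave 20 higher calls and a median of 0.17. Leaving out 1 replicate pair gave 11 to 13 called members, 9 to 10 higher and 2 to 3 lower, a median log2 fold change of members between 0.0465 and 0.0848, and 11 to 21 members without overlap. An alternative chosen after seeing the data left out control replicate 3 alone and gave 3 lower calls and a median of 0.05. The ubiquitin list had 2 calls, 1 in DESeq2 and 0 in edgeR without the replicate block, 1 with total-count factors, 1 without control replicate 3 and 0 to 2 without a replicate pair; with replicate 1 left out neither UBB nor RPS27A was called. The peptide-loading list had 3 calls in edgeR without the replicate block. The log2 ratio of PSMB10 to PSMB7 was 1.05 to 1.23 without a pair, where the exact permutation test gave p = 0.1, its lowest value for groups of 3. In the paired sign-flip test, with the replicate block, the ratio was 1.17 with an exact p of 0.125 (added after seeing the data). The members' share of a library rose by 0.16 on the log2 scale, and by 0.20 as counts per kilobase. With total-count factors the median log2 fold change over all genes was 0.09. Except where stated, the cause was not tested. The effect of depth was not tested; PSMG3 and PSMG4, with the fewest counts, had the widest errors.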
